A study of Mus musculus with 15 samples.

Results

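Fasn, Scd1, Scd2, Acaca, Acly, Acss2, Elovl6 and Srebf1 are the 8 genes of de novo fatty acid synthesis and of its regulator described here. They were taken as a named list by their role, with no rule on their values but with earlier results of these data known. All 8 passed the filter on low values, among 11496 genes tested. RNA of the large intestine of male C57Bl/6 mice aged 4 weeks was sequenced in 15 libraries, in 5 groups of 3. All mice were gavaged on 3 days, 24 h apart, with the solvent Cremophor EL (spelled Chremophor EL in the labels) and 10% DMSO, and the tissue was taken 12 h after the last gavage. The vehicle group (replicates 2, 4 and 5) is taken to have received the solvent alone. The cymopol groups received cymopol, a brominated hydroquinone of a green alga, at a high dose of 1.4 mmol/kg (replicates 11, 12 and 14) or a low dose of 0.3 mmol/kg (replicates 33, 34 and 35). The extract groups received a non-polar algal extract at a high dose of 1.0 g/kg (replicates 21, 23 and 25) or a low dose of 0.3 g/kg (replicates 26, 27 and 29). The doses of the 2 agents are in different units and are not matched. The labels do not say that each library came from a separate mouse, so p-values measure the spread between these libraries, which may in part be technical.

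De novo synthesis builds fatty acids from cytosolic acetyl-CoA. ATP citrate lyase (Acly) makes acetyl-CoA from citrate, and acetyl-CoA synthetase (Acss2) makes it from acetate. Acetyl-CoA carboxylase (Acaca) forms malonyl-CoA, fatty acid synthase (Fasn) assembles palmitate, Elovl6 lengthens it, and the stearoyl-CoA desaturases Scd1 and Scd2 add a double bond. Srebf1 encodes SREBP-1, the transcription factor known for switching these genes on after feeding and insulin. Adipose tissue and liver are known for high levels of the pathway, and fat lies next to the wall of the large intestine.

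Scd1 and Scd2 are neighbours on chromosome 19 of GRCm38, Scd1 at chr19:44394455-44407879 on the minus strand and Scd2 at chr19:44293674-44306864 on the plus strand. Their coding sequences, of 1068 and 1077 bases, were identical in 965 of 1077 aligned columns (89.6%). The longest identical run is shown because short reads from it cannot be given to either gene. It spans 147 bases, in capitals, with 27 bases of coding sequence on each side in lower case (bases 496 to 696 of the Scd1 coding sequence, from the GENCODE M21 transcripts, sense strand).
Scd1: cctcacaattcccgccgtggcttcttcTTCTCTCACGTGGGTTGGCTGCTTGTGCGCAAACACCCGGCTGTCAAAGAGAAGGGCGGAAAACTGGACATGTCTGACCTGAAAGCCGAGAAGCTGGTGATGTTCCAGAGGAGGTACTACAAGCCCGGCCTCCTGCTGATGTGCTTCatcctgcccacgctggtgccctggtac
Scd2: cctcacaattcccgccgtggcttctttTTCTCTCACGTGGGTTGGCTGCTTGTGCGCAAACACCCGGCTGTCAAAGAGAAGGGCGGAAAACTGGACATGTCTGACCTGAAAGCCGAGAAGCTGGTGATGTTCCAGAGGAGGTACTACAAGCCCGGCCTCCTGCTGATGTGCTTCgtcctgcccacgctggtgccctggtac

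The other enzymes lie apart from one another. Of all 50-base words in its transcripts, Acaca shared 30.4% with other genes, nearly all with the pseudogene Gm5182 (29.2%), so its level is the least certain in this respect. That share was 4.56% for Scd1 (most of it with Scd3), 3.97% for Scd2, 3.98% for Elovl6 and 0.293% for Srebf1, and 0 for Fasn, Acly and Acss2. Scd3 was listed at 0 in 14 libraries and at 0.054 FPKM in extract high replicate 25. FPKM divides the fragments of a gene by its transcript length and by the size of the library, so levels of different genes can be set side by side.

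Promoters of 6 members were found in the RefSeq table (GRCm38.p6), those of Scd1 and Scd2 were not. The 250 bases upstream of the start are shown for Fasn and Acly, the 2 of these 6 with the best supported levels, 5′ to 3′ on the gene's strand. Fasn is at chr11:120824548-120824797 and Acly at chr11:100528001-100528250, both on the minus strand. Capitals mark CCAAT boxes (CCAAT, or its reverse complement) in Fasn and GC boxes (GGGCGG, or its reverse complement) in Acly.
Fasn: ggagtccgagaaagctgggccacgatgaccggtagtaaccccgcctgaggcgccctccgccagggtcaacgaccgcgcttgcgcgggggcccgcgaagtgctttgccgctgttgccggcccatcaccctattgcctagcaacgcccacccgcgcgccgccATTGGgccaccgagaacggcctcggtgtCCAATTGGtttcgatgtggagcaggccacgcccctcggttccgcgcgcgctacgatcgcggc
Acly: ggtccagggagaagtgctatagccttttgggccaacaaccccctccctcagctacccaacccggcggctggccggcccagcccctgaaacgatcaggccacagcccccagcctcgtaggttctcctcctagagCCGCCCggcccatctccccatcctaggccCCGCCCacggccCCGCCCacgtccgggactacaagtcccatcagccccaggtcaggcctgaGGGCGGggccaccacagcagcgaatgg
Both strands were searched, and 2 of the CCAAT boxes of Fasn overlap each other. The 6 members have 8 windows of this length, because Srebf1 has 3 starts. The window of Acaca (chr11:84195188-84195437, plus strand) lies inside the gene as placed by GENCODE M21, which starts at 84129672. CCAAT was in 4 of the 8 windows (in Fasn, Acss2 and Srebf1) and in 33.8% of all 32851 RefSeq promoters of this length. GGGCGG was in 4 of the 8 (in Acly, Acss2 and Srebf1) and in 32.7% of all. TCACNCCAC, a form of the sterol regulatory element, and the E-box CACGTG were in none of the 8 windows, against 1.05% and 6.02% of all promoters. These are matches of letters and say nothing of binding.

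By estimated fragments, the libraries were shallow and unequal. Fragments in protein-coding genes were estimated from the deposited FPKM intervals, as if these held counting error only. They ranged from 25233 to 556401 per library, and are a rough scale and not counts. The cymopol high libraries held 288316 to 342028 and the extract high libraries 174904 to 556401, against 25233 to 226531 for vehicle, 31853 to 183362 for cymopol low and 28513 to 106747 for extract low. In vehicle replicates 2 and 5 and extract low replicate 26, 23.6% to 46.8% of the estimated fragments lay between genes, against 4.13% to 16.5% in the other 12 libraries. Of the tested genes, the vehicle libraries listed 27.1% to 51.2% at 0, against 5.74% to 13.1% in the 6 high-dose libraries. Median log2 differences over all genes from vehicle were 0.81 for cymopol high and 0.71 for extract high. A member near 0 in these 2 comparisons therefore lay below most genes. Colon epithelial markers (10 genes) were present in every library, summing to 71.1 to 2620 FPKM, while 7 squamous and sebaceous markers summed to at most 3.36 FPKM.

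How well a member was measured differed as much as its level. The lower bound of the deposited FPKM interval was above 0 in 15 of 15 libraries for Fasn and Scd1, in 11 for Acly, 9 for Elovl6, 8 for Acss2 and 7 for Acaca. It was above 0 in only 4 libraries for Scd2 and 3 for Srebf1. Acss2 was listed at 0 in 4 libraries, and Acaca and Elovl6 in 1 each. The widest example is Scd2 in cymopol high replicate 12, at 77.7 FPKM with bounds of 0 and 668.

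Among the suppliers of acetyl-CoA, Acly had 2.43, 158 and 22.4 FPKM in vehicle replicates 2, 4 and 5. It had 12.5, 47.1 and 23.4 FPKM in the cymopol high libraries (replicates 11, 12 and 14) and 9.64, 29.9 and 9.81 in the extract high libraries (21, 23 and 25). The low doses gave 7.88, 24 and 18.8 FPKM for cymopol (33, 34 and 35) and 0.823, 11.7 and 14.1 for the extract (26, 27 and 29). Vehicle replicate 4 was the highest library and the treated groups lay within the range of the vehicle, except that extract low replicate 26 fell below it. The order of the mean log2 levels was cymopol high, vehicle, cymopol low, extract high and extract low, with no step larger than the spread within the neighbouring groups.

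Acss2 had 3.84, 8.93 and 2.17 FPKM in the vehicle libraries, 3.38, 14.1 and 9.25 in cymopol high, and 0, 15.1 and 0 in extract high. It had 0, 22.4 and 6.43 FPKM in cymopol low and 0.471, 9.29 and 0 in extract low. The 4 zeros are listed zeros and may be failed estimates, which was not tested. Acss2 shares 22544 bp with Gss, the glutathione synthetase gene on the opposite strand. In those 4 libraries Gss had 47 and 17.6 FPKM (extract high replicates 21 and 25), 81.9 FPKM (extract low replicate 29) and 1.01 FPKM (cymopol low replicate 33). In the libraries with Acss2 above 0, Gss ran from 0.85 FPKM (extract low replicate 26) to 26.9 FPKM (cymopol high replicate 11). It was also 17.6 FPKM in cymopol high replicate 14. Whether the counting used strand is not given in the sources used here, so reads of the shared span cannot be told apart.

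Acaca was low in most libraries. It had 0.396, 66.5 and 0 FPKM in vehicle, 13.3, 9.91 and 2.45 in cymopol high, 3.26, 4.83 and 4.73 in extract high, 0.154, 0.29 and 10.9 in cymopol low, and 0.224, 9.39 and 2.73 in extract low. The vehicle libraries alone spanned the values of all treated libraries. The 5 mean log2 levels differed by less than the spread within groups at every step, and by 1.64 from the highest (cymopol high) to the lowest (cymopol low).

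Fasn, the central enzyme, was detected in every library. The vehicle libraries had 1.87, 84.4 and 27.8 FPKM. Cymopol high had 53.1, 51.1 and 25.1 FPKM (mean 43.1 ± 15.6 SD, n = 3) and extract high 18.3, 6.48 and 6.18 FPKM (10.3 ± 6.93, n = 3). Cymopol low had 19.1, 34.2 and 32.3 FPKM (28.5 ± 8.21, n = 3) and extract low 5.26, 15.8 and 18.1 FPKM (13.1 ± 6.86, n = 3). All 6 cymopol libraries were above all 6 extract libraries, with the lowest cymopol value at 19.1 FPKM and the highest extract value at 18.3. The deposited bounds of these 2 values overlap (9.6 to 28.6 in cymopol low replicate 33, 14.6 to 22.1 in extract high replicate 21). This split over both doses was seen in the values, and the share of all genes split this way was not computed. The low-dose difference reversed with another scaling, given below. The vehicle libraries overlapped with every treated group.

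Elovl6 had 0.241, 7.31 and 31.1 FPKM in vehicle, 8.2, 3.77 and 5.11 in cymopol high, 3.74, 3.76 and 3.05 in extract high, 0.733, 3.32 and 5.53 in cymopol low, and 0, 2.17 and 9.81 in extract low. It was the most even member in the deeper libraries: the 6 high-dose libraries lay between 3.05 and 8.2 FPKM. The cymopol high and extract high libraries did not overlap, but by a margin of 3.77 against 3.76 FPKM.

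Scd1, the main inducible desaturase of adipose tissue and liver, reached the highest value of any member. The vehicle libraries had 4.4, 305 and 54 FPKM. Cymopol high had 79.3, 36.8 and 23.9 FPKM and cymopol low 32, 25.5 and 78.9 FPKM. Extract high had 13.8, 7.87 and 7.46 FPKM and extract low 1.35, 30.7 and 39.7 FPKM. Vehicle replicate 2 and extract low replicate 26, both rich in intergenic signal, were the lowest of the series, and the 3 extract high libraries came next. Vehicle replicate 5, also rich in intergenic signal, stood at 54 FPKM. Ranked within its own library, Scd1 stood at the 65.8 to 87.1 percentile of tested genes in extract high and at the 91.3 percentile or higher in the other 12 libraries. This ranking moves with the share of genes listed at 0, which was 5.74% to 13.1% in extract high and 7.39% to 11.8% in cymopol high, where Scd1 stood at the 91.5 to 98.7 percentile.

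Scd2, the desaturase known from brain and many other tissues, had 1.37, 13.5 and 34 FPKM in vehicle, 28.8, 77.7 and 33.7 in cymopol high, and 18, 38.9 and 11.8 in extract high. It had 10.6, 21.9 and 27 FPKM in cymopol low and 0.57, 14.8 and 18.4 in extract low. Every cymopol high library was above every cymopol low library. Its mean log2 level in cymopol high was 1.02 above that of the next group, extract high, and this step exceeded the spread within both (SD 0.75 and 0.83). The intervals were too wide for firm levels, with a lower bound above 0 in cymopol high replicates 11 and 14, extract high replicate 23 and cymopol low replicate 35 only.

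Srebf1, the regulator, had 5.2, 68.7 and 40.7 FPKM in vehicle, 54.6, 7.98 and 11.2 in cymopol high, and 1.58, 5.34 and 10.8 in extract high. It had 7.48, 20.5 and 8.57 FPKM in cymopol low and 1.39, 30.1 and 32.7 in extract low. The extract high group had the lowest mean log2 level (2.53 ± 1.10 SD, against 4.71 ± 1.84 in vehicle, n = 3 each), and the groups overlapped. From high to low, the mean log2 levels of Srebf1 were ordered vehicle, cymopol high, extract low, cymopol low and extract high, and those of Fasn cymopol high, cymopol low, vehicle, extract low and extract high. For Scd1 the vehicle and both cymopol groups lay within 0.09 and 0.04 of each other (5.49, 5.40 and 5.37), above extract low (3.86) and extract high (3.37). Over the 8 genes, the steps between neighbouring groups that exceeded the larger SD of the pair were the first of Scd2 and that of Elovl6 from cymopol high to extract high (0.52), and no other. SREBP-1 is controlled largely by cleavage of its protein, which these data do not measure.

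**Figure D1:**
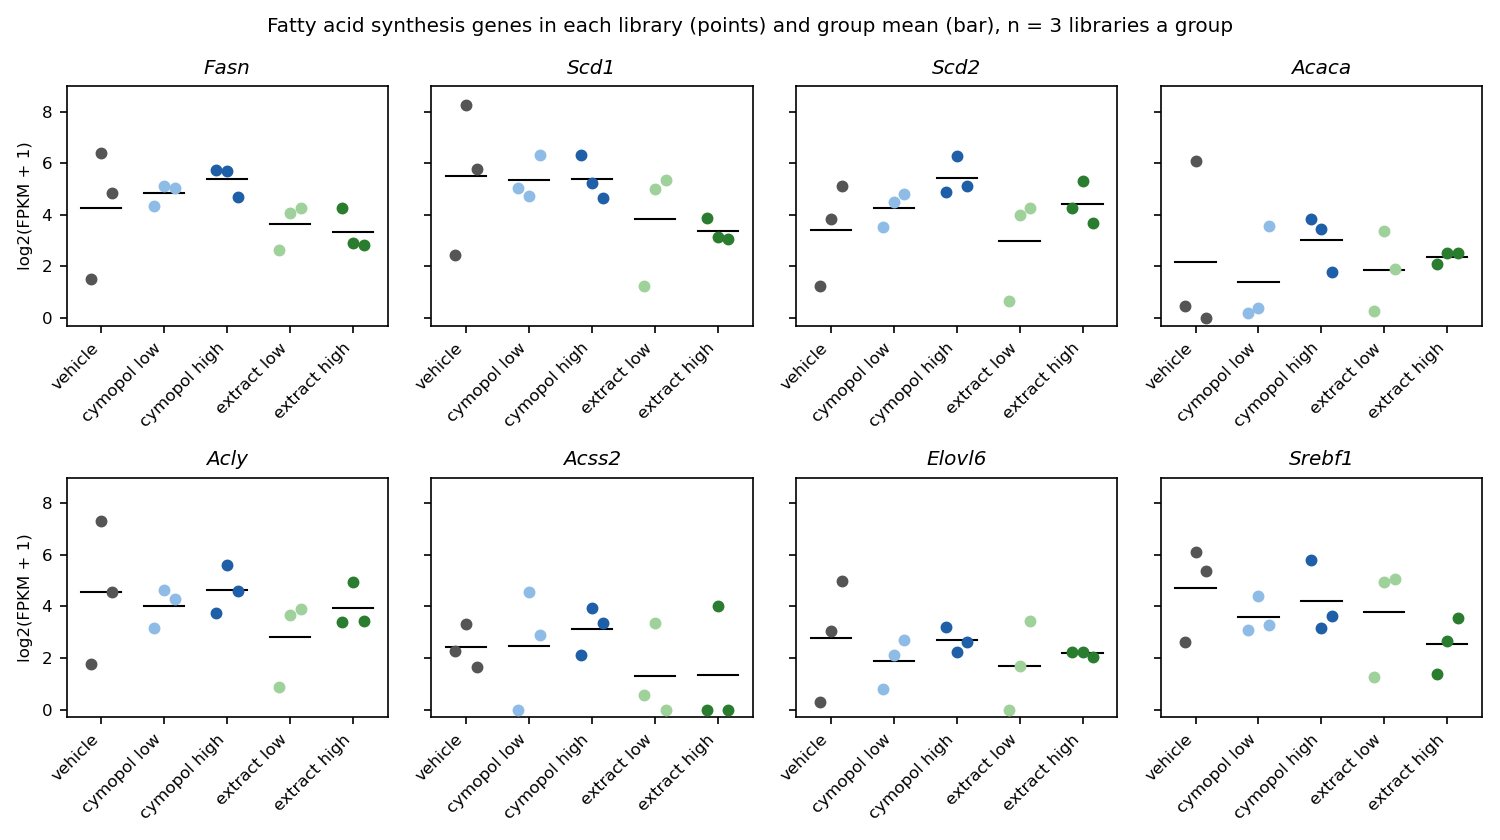
Level of each of the 8 genes as log2(FPKM + 1) on the vertical axis, by group on the horizontal axis, 1 point per library and a bar at the group mean (n = 3). Fasn and Scd1 are lower in the extract high libraries than in the cymopol high libraries, and the vehicle points of Scd1 run from 4.4 to 305 FPKM.

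Against vehicle, no difference of a member passed the test. With limma on log2(FPKM + 1), adjusted by Benjamini-Hochberg over all genes tested, 0 of 8 were called (adjusted p under 0.05) in any of the 4 treated groups, and 0 of 8 had an unadjusted p under 0.05 in this fit. The background was as thin: 0.0174% of all genes were called for cymopol high, 0% for cymopol low, 0.0087% for extract high and 0% for extract low, while 13.2%, 5.68%, 11.6% and 3.91% had an unadjusted p under 0.05. No member lay wholly above or below the vehicle libraries in any treated group. All genes higher without overlap made up 19.5% for cymopol high, 3.89% for cymopol low, 19.3% for extract high and 1.23% for extract low, and those lower 0.365%, 0.835%, 0.452% and 1.44%. These 4 comparisons share the 3 vehicle libraries, and their values below are not independent.

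Cymopol high had 5 members above and 3 below vehicle. The median log2 difference was 0.41 over the 8, against 0.81 over all genes tested, of which 79.5% lay above 0. The widest differences were those of Scd2, at 2.02 ± 1.26 (SE; limma adjusted p = 0.482), and Fasn, at 1.13 ± 1.25 (adjusted p = 0.691). Scd1 differed by -0.09 ± 1.37. The direction for Fasn turned without vehicle replicate 2, to -0.24. The members' median minus that of all genes, -0.40, was -1.23 without vehicle replicate 2 and 0.19 without vehicle replicate 4. Cymopol low had 3 members above and 5 below, with a median of -0.32 against 0.23, and limma adjusted p of 0.954 or more. There 58.9% of all genes lay above 0.

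Extract high had 6 members below and 2 above vehicle, with a median log2 difference of -0.77 over the 8, against 0.71 over all genes, of which 77.0% lay above 0. Srebf1 differed by -2.18 ± 1.28 (95% interval -4.77 to 0.41; limma adjusted p = 0.504) and Scd1 by -2.12 ± 1.37 (-4.90 to 0.66; adjusted p = 0.539). Acss2 differed by -1.08 ± 1.22 and Fasn by -0.92 ± 1.25. Scd2 went the other way, at 1.00 ± 1.26. The intervals hold both no difference and a difference of many fold. Scaling changed the sizes. Median-of-ratios scaling brought the median of all genes from 0.71 to 0.25 and the differences of Scd1 and Srebf1 to -3.05 ± 0.80 and -3.05 ± 0.84 (limma unadjusted p = 0.00111 and 0.00182, adjusted p = 0.259 and 0.32). There 4 of 8 members (Scd1, Srebf1, Fasn and Acly) had an unadjusted p under 0.05, against 9.92% of all genes. With quantile normalization it was 2 of 8 (Scd1 at -2.95 ± 0.85 and Srebf1 at -2.75 ± 0.84), against 11.5%. Vehicle replicate 4 carried much of it: without that library the Scd1 difference was -0.74, that of Srebf1 -1.48 and that of Fasn 0.16. With the 3 libraries rich in intergenic signal left out, vehicle is replicate 4 alone, assumed to vary like the other groups, and Scd1 differed by -4.89 ± 1.05 (limma adjusted p = 0.0208), in a setting that called 206 genes (1.79% of all) where the full fit called 1. No other member call was made in the 9 comparisons and 24 alternatives.

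Extract low had 8 of 8 members below vehicle, from -0.33 for Acaca to -1.73 for Acly, with a median of -1.02 against -0.14 over all genes, and limma adjusted p = 1 throughout. Here 41.8% of all genes lay above 0, and extract low replicate 26 was among the shallowest libraries.

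Between the doses of cymopol, all 8 members were higher at the high dose (median log2 difference 0.64), but so were 76.8% of all genes (median 0.60). No member was called, against 0.0087% of all genes. Scd2 was higher without overlap (1.15 ± 1.26, limma adjusted p = 0.896), as were 9.75% of all genes, and none was lower without overlap, against 0.818%. At an unadjusted p under 0.05 stood 0 of 8 members and 5.84% of all genes. Between the doses of the extract, 5 members were higher and 3 (Fasn, Scd1 and Srebf1) lower at the high dose, with a median of 0.25 against 0.89. Srebf1 differed by -1.24 ± 1.28 and Scd1 by -0.48 ± 1.37, while 88.0% of all genes were higher. No member was called, against 0.0087% of all genes, and 0 of 8 had an unadjusted p under 0.05 in this fit, against 7.28%. With median-of-ratios scaling it was 3 of 8 (Fasn, Scd1 and Srebf1), against 4.67% of all genes. With quantile normalization it was 2 of 8 (Fasn and Srebf1), against 4.43%. No member was called in either. No member was higher or lower without overlap, against 20.9% and 0.087% of all genes.

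The clearest separation was between the agents at their high doses, the 2 groups of similar estimated depth. Neither included any of the 3 libraries rich in intergenic signal. All 8 members were higher with cymopol, with a median log2 difference of 1.34 against 0.11 over all genes, of which 57.5% were higher. None was called (limma adjusted p = 1 for all 8), against 0.0174% of all genes, and 0 of 8 had an unadjusted p under 0.05, against 1.73%. For 3 of 8, Fasn, Scd1 and Elovl6, the libraries did not overlap, against 4.49% of all genes higher without overlap, and 0 of 8 were lower without overlap, against 2.4%.

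By size, Fasn differed by 2.05 ± 1.25 (95% interval -0.49 to 4.58) and Scd1 by 2.03 ± 1.37 (-0.75 to 4.81). Acss2 followed at 1.80 ± 1.22, with 2 listed zeros in extract high, and Srebf1 at 1.66 ± 1.28. Scd2 differed by 1.02 ± 1.26, Acly by 0.72 ± 1.30, Acaca by 0.64 ± 1.27 and Elovl6 by 0.52 ± 1.14. In the 10 alternatives that move these estimates (the other 14 of 24 leave them as they are), each kept its sign, between 0.23 and 3.86. The model shares 1 spread over all 15 libraries, and vehicle was the group with the widest spread of log2 levels for Fasn, Scd1, Acaca, Acly and Elovl6. Fitted on the 2 groups alone, Fasn and Scd1 had an unadjusted p under 0.05, against 3.02% of all genes, and no member was called.

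At the low doses, 6 of 8 members were higher with cymopol than with the extract (median 1.18 against 0.39), as were 68.7% of all genes. Fasn was higher without overlap (1.18 ± 1.25, limma adjusted p = 1), as were 4.58% of all genes, and no gene was called (0%). None was lower without overlap (0.226% of all genes), and 0 of 8 had an unadjusted p under 0.05, against 3.38%. With median-of-ratios scaling the Fasn difference became -0.07. The change from low to high dose did not differ detectably between the agents: the interaction ranged from -0.50 for Acly to 1.84 for Srebf1 (limma adjusted p = 1 for all 8; 0% of all genes called; unadjusted p under 0.05 for 0 of 8 and 1.72% of all genes), with a median of 0.57 against -0.30.

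**Figure D2:**
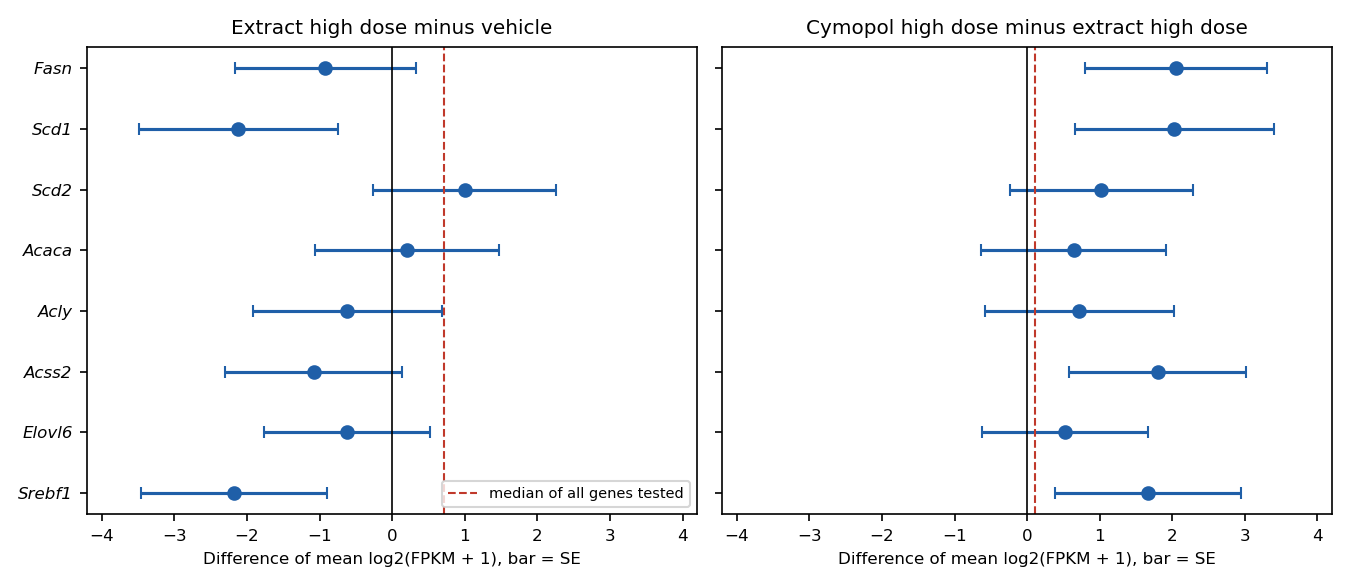
Difference of mean log2(FPKM + 1) on the horizontal axis for each of the 8 genes, extract high minus vehicle on the left and cymopol high minus extract high on the right, with bars of 1 SE and a dashed line at the median of all genes tested. On the left 6 of 8 points lie below 0 while the line is at 0.71, and on the right all 8 lie above the line at 0.11.

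The summed level of fat cell markers was also higher in cymopol high than in extract high. Extract high and vehicle overlapped in it, with medians of 40.9 and 24.4 FPKM. The extract high libraries ran from 32 to 110 FPKM and the vehicle libraries from 11.4 to 678 FPKM. The list holds 11 adipocyte genes, and their summed level was 448, 390 and 180 FPKM in cymopol high (replicates 11, 12 and 14) and 110, 32 and 40.9 FPKM in extract high (21, 23 and 25). In cymopol high against extract high, 8 of the 11 were higher without overlap (Adipoq, Plin1, Cidec, Cfd, Retn, Fabp4, Lpl and Lipe), against 4.49% of all genes. Plin1, which coats the lipid droplet of fat cells, had 24.8, 12.2 and 13.2 FPKM in cymopol high and 2.18, 0.797 and 0.258 in extract high. Adipoq, the fat cell hormone adiponectin, had 18.1, 6.4 and 9.86 FPKM against 2.24, 2.54 and 2.13. Of the other lists, 1 of 10 epithelial markers (Krt8) and none of the goblet cell, smooth muscle, fibroblast, B cell or squamous and sebaceous markers were higher without overlap. None of any of these lists was lower without overlap.

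In the other groups the adipocyte sum was 11.4, 678 and 24.4 FPKM in vehicle replicates 2, 4 and 5, and 7.46, 146 and 362 FPKM in extract low replicates 26, 27 and 29. It was 133 and 106 FPKM in cymopol low replicates 33 and 34, while replicate 35 came next to vehicle replicate 4 as the library with the most. The library with the highest sum, vehicle replicate 4, was also the highest for Scd1, Fasn, Acly, Acaca and Srebf1, and the one with the lowest sum, extract low replicate 26, was the lowest for Scd1, Scd2, Acly, Elovl6 and Srebf1. That library was also the lowest for the epithelial (71.1 FPKM), goblet cell (77.9), smooth muscle (34) and fibroblast (12.1) sums, so its low levels were not particular to fat markers. Vehicle replicate 4 also had the highest B cell marker sum, 711 FPKM, against at most 60.3 in every other library. In vehicle replicate 5, 7 of the 11 adipocyte markers were listed at 0, among them Adipoq, Plin1, Cfd and Fabp4, while Scd1 stood at 54 and Srebf1 at 40.7 FPKM. Between 0 and 4 were listed at 0 in the other 14 libraries. The part of fat cells in the differences of the 8 genes was not tested, and in whole tissue more cells of a type and more RNA per cell cannot be told apart.

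**Figure D3:**
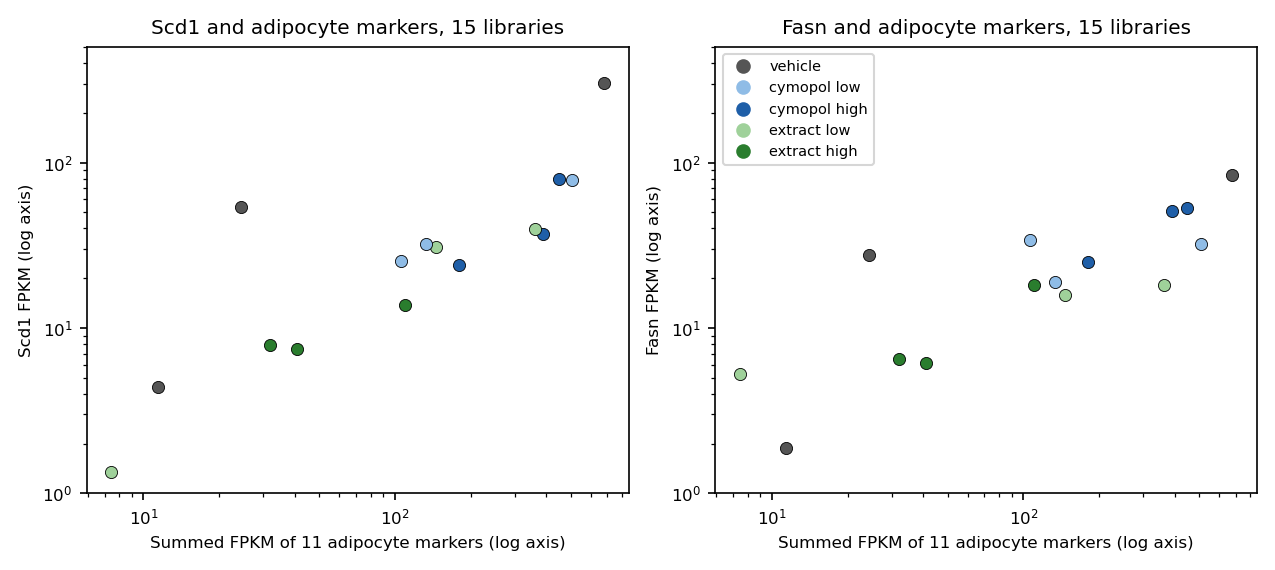
Level of Scd1 (left) and Fasn (right) in FPKM on the vertical axis against the summed FPKM of 11 adipocyte markers on the horizontal axis, both log axes, 1 point per library, coloured by group. The extract high libraries lie at sums of 32 to 110 FPKM and the cymopol high libraries at 180 to 448 FPKM, and vehicle replicate 5 stands apart, with Scd1 at 54 FPKM and a sum of 24.4 FPKM.

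Cidec was among the genes most like both Fasn and Scd1. Over the 15 libraries and 10656 protein-coding genes, the 3 most alike by Pearson correlation of log2(FPKM + 1) were Cidec (r = 0.869), Cables2 (0.866) and Clu (0.851) for Fasn, and Tgfbr3 (0.891), Cidec (0.880) and Car3 (0.873) for Scd1. Cidec, a protein of fat cell lipid droplets, and Car3, the carbonic anhydrase abundant in fat, are both on the adipocyte list. Fasn and Scd1 also had the highest correlation of the 28 pairs of members (r = 0.89). The pairs ran from 0.13 to 0.89 with a median of 0.59, against 0.32 over 199984 random pairs of protein-coding genes. The libraries share depth and quality, which enters all of these values.

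The other members had other partners. The most alike were Hint1 for Scd2 (r = 0.976), Cd44 for Acaca (0.963), Gm20708 for Acly (0.970), Mpp5 for Acss2 (0.857), Mapk3 for Elovl6 (0.940) and Meis2 for Srebf1 (0.854), all over 15 libraries. For Scd2, Ctdsp2 and Tspan1 followed, for Acaca Hpd and Scarb1, for Acly Ube3c and Purb, for Acss2 Exoc4 and Usp34, for Elovl6 Abcd3 and Edc4, and for Srebf1 Slc39a13 and Syn1. No adipocyte marker was among them.

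The balance of members within a library is free of the library's overall scale. These ratios were chosen after the values were seen and are given as a description. Of 18 exact permutation tests on the 2 ratios below, none passed after Benjamini-Hochberg adjustment. The lowest adjusted p was 0.195 (exact permutation test, Scd1 share, both high doses against both low doses). With 3 libraries against 3, the smallest p that test can give is 0.1. Scd1 made up 76.2%, 95.8% and 61.3% of the summed FPKM of Scd1 and Scd2 in vehicle, 73.4%, 32.1% and 41.5% in cymopol high, and 43.4%, 16.8% and 38.6% in extract high. At the low doses it made up 75.2%, 53.9% and 74.5% with cymopol and 70.3%, 67.4% and 68.3% with the extract. Every extract high library was below every vehicle and extract low library. The difference from extract low was 35.7 percentage points, and 27.7 to 41 with any 1 library left out. The share rests on Scd2, whose lower bound was above 0 in 4 libraries, and on reads that the identical run printed above cannot place.

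Scd1 stood at 2.35, 3.61 and 1.94 times the FPKM of Fasn in vehicle, 1.49, 0.72 and 0.954 in cymopol high, and 0.751, 1.22 and 1.21 in extract high. It stood at 1.68, 0.747 and 2.44 in cymopol low and 0.256, 1.94 and 2.19 in extract low. All 6 high-dose libraries were below all 3 vehicle libraries, the nearest at 1.49 and 1.94. The means of the log2 ratios differed by 1.32, and by 1.06 to 1.51 with any 1 library left out. Both genes had a lower bound above 0 in all 15 libraries.

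**Figure D4:**
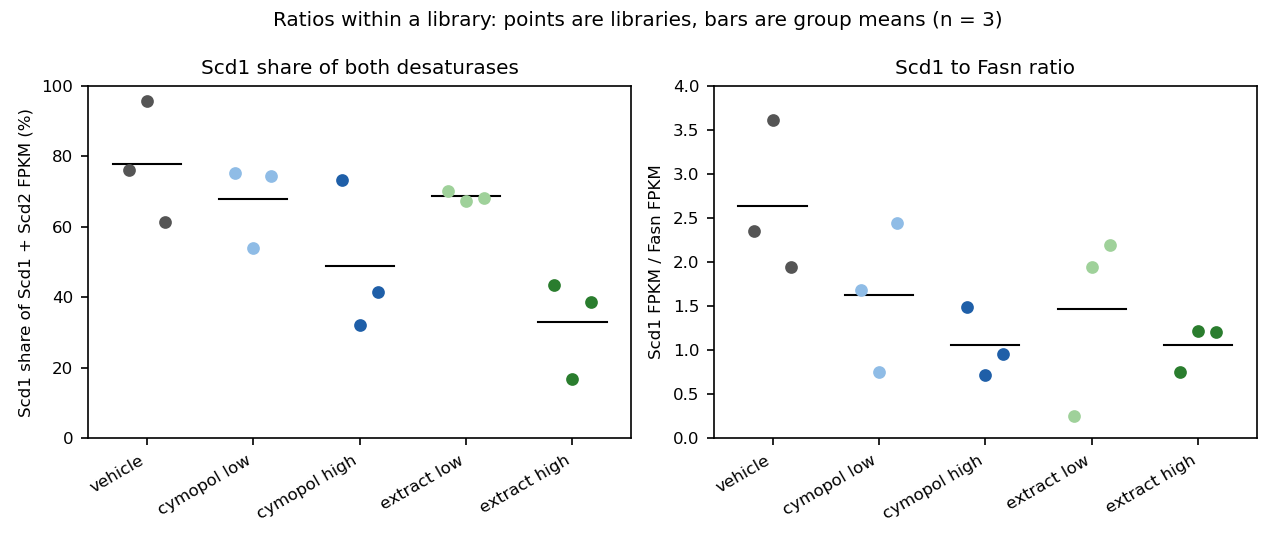
Scd1 as a percent of the summed FPKM of Scd1 and Scd2 (left) and the ratio of Scd1 to Fasn FPKM (right) on the vertical axes, by group, 1 point per library and a bar at the group mean (n = 3). The extract high shares (16.8% to 43.4%) lie below those of extract low (67.4% to 70.3%), and the ratios of both high doses (0.72 to 1.49) lie below those of vehicle (1.94 to 3.61).

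Other genes of the pathway gave no call either. Of 17 partners in synthesis, elongation, desaturation and activation, 16 were tested, of 13 genes that control lipogenic transcription 12, and of 8 genes of triglyceride synthesis and storage 7 (Elovl3, Scap and Gpam were not tested). With limma, 0 of each list were called in any comparison, either way. In cymopol high against extract high, 10 of 16 partners, 8 of 12 control genes and 6 of 7 storage genes were higher, with median log2 differences of 0.35, 0.27 and 1.14, against 0.11 over all genes.

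Those higher without overlap in that comparison were Thrsp and Acsl5 among the partners and Lpin1, Dgat2 and Pnpla3 among the storage genes, with 0 of 12 control genes, against 4.49% of all genes. In extract high against extract low, 7 of 17 partners, 6 of 12 control genes and 0 of 7 storage genes were higher without overlap, against 20.9% of all genes, and Thrsp was lower. Thrsp, a lipogenic protein induced by carbohydrate and thyroid hormone, had 11.5, 3.34 and 4.61 FPKM in cymopol high and 1.13, 0 and 0.79 in extract high. Dgat2, which makes triglyceride, had 12.1, 12.6 and 22.7 FPKM against 9.35, 5.24 and 5.14. Lpin1, a phosphatidate phosphatase, had 6.6, 3.7 and 1.72 FPKM against 0.285, 0.973 and 0.0378. Vehicle replicate 4 was again the highest library for Thrsp, Dgat2 and Lpin1, at 52.8, 126 and 41.8 FPKM.

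By the range of their group means, Hsd17b12, Acsl5, Fads2 and Acacb led the partners, Mlx, Nr1h3, Pparg and Nr1h2 the control genes, and Agpat2, Dgat1, Lpin1 and Plin2 the storage genes. Acsl5, which activates long-chain fatty acids, had 10.8, 20.2 and 36.1 FPKM in cymopol high and 3.05, 10.2 and 2.32 in extract high. Nr1h3, the oxysterol receptor LXR alpha that acts on Srebf1, had 8.55, 5.01 and 10.9 FPKM in cymopol high and 3.23, 7.68 and 2.88 in extract high, above 0, 0.975 and 0 in vehicle. It was the one control gene higher without overlap in both high-dose groups against vehicle, as were 19.5% and 19.3% of all genes. Pparg, the fat cell regulator, had 9.52, 6.85 and 1.44 FPKM in cymopol high and 4.28, 23.4 and 34.4 in extract high, so it did not follow the adipocyte list there.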

How the data were processed

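Per the labels' protocols, RNA (90 ng) was depleted of ribosomal RNA and made into libraries with a low-input kit. Per the submitters' processing notes, STAR 2.4.0j and GRCm38.p4 were used. The authors deposited FPKM with a lower and an upper bound, per the file headers those of a Cufflinks gene table. The sources used here give no quantifier settings.

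Rows were joined by Ensembl identifier or, for loci assembled per library, by position in GENCODE M21 (shared span at least 0.5 of the joint span, mutual best match). Only Scd1 had its identifier, in 11 libraries. It was matched by locus in 4 libraries and the other 7 members in all 15, with a shared span of at least 0.942. Tests covered the 11496 genes valued in every one of the 15 libraries that reached an FPKM of 1 in 3 or more. Values were analysed as log2(FPKM + 1), which understates changes of low genes, with limma 3.58.1 in R 4.3.3 (1 mean per group, moderated variances, intensity trend, two-sided, Benjamini-Hochberg over all genes), in 8 comparisons and 1 interaction. The code was tested on simulated data. Fragments were estimated from the interval widths as if these held counting error only. The widths hold more: in cymopol high replicate 12, Scd2 at 77.7 FPKM came to 0.0692 fragments and Scd1 at 36.8 FPKM to 436. The estimates are therefore a rough scale of depth and not counts. The 24 alternatives changed the pseudocount, filter, scaling, join, model or libraries.

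The members and lists were chosen with earlier results of these data known. All 8 members are named, with every called gene of the companion lists, else the 4 with the largest range of group means, and the 3 genes most correlated with each member. Companion genes named for lack of overlap, and the genes quoted among the markers, were chosen after their values were seen.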

Additional observations from a re-analysis of the deposited data

How the results depend on the processing

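Between 7 and 14 of the 24 alternatives leave the estimates of a given comparison as they are. In the others, all 8 genes kept their direction in cymopol high against extract high (10 alternatives), and 1 of 8 did in each cymopol dose and 3 of 8 in each extract dose against vehicle (11 alternatives each). Without the 3 libraries rich in intergenic signal, 1 member was called in extract high against vehicle (Scd1, limma adjusted p = 0.0208), and the members' median log2 difference minus that of all genes became -1.71 for cymopol high, -1.77 for cymopol low and -3.36 for extract high, each against vehicle replicate 4 alone. In that setting 163 to 350 of all genes were called against vehicle, compared with 0 to 2 in the main fits and at most 13 in any other alternative and comparison. With any 1 library left out, that difference for cymopol high ranged from -1.23 to 0.19, from -0.40 (and was 0.18 with no filter). For cymopol low it ranged from -1.60 (without vehicle replicate 2) to 0.38 (without vehicle replicate 4), from -0.55. With any 1 library left out, Fasn ranged from -2.29 to 0.16 (reversed, without vehicle replicate 4) in extract high against vehicle, and from -0.24 (reversed, without vehicle replicate 2) to 2.20 in cymopol high against vehicle. It also reversed to -1.03 in the latter without the 3 libraries and to -0.07 in cymopol low against extract low with median-of-ratios scaling. Several alternatives brought members to an unadjusted p under 0.05 without a call, and those given here are examples. Without vehicle replicate 2, 2 of 8 members did in extract high and 3 of 8 in extract low against vehicle (limma, 9.56% and 10.4% of all genes). In cymopol high against extract high, 4 of 8 did with array weights (5.61%). There Fasn and Scd1 did with median-of-ratios scaling (1.24%) and with quantile normalization (2.01%). Counts of called members were 0 in every other alternative. No paired analysis was possible because the groups share no replicate numbers. Depth and interval width limit every result here. Most levels of Scd2 and Srebf1 have a lower bound of 0. In cymopol high replicate 12 the bounds were 0 and 668 FPKM for Scd2 but 33.2 and 40.3 FPKM for Scd1. Why the intervals differ between genes was not tested. The ratios and their alternatives were added after seeing the data.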
